A study of Mus musculus with 24 samples.

Results

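Glucocorticoid activation and response genes were followed in quiescent and proliferating cells of 3 mouse mammary carcinoma lines. The set has 9 genes: Hsd11b1, Hsd11b2 and H6pd, which set the supply of active hormone, the receptor genes Nr3c1 and Nr3c2, and Tsc22d3, Fkbp5, Sgk1 and Zbtb16, which answer to the activated receptor. They were taken by symbol, without regard to case, and all 9 were found among the 24034 symbols present in the count tables of all 3 lines. The set was selected on the measured change between the gates, p27K high against p27K negative, so that change is given as a description and carries no p-value.

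Corticosterone is the main glucocorticoid of mice. In tissues its level also depends on enzymes: 11β-hydroxysteroid dehydrogenase type 1, the product of Hsd11b1, regenerates active corticosterone from inert 11-dehydrocorticosterone inside the endoplasmic reticulum, with NADPH made there by hexose-6-phosphate dehydrogenase (H6pd). The type 2 enzyme (Hsd11b2) runs the opposite reaction and shields the mineralocorticoid receptor. Hormone-bound glucocorticoid receptor leaves its chaperones, enters the nucleus and binds palindromic response elements near target genes.

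RNA was sequenced in bulk from 24 libraries, both gates of 12 tumours, 4 tumours a line. In each line, 4T07, D2A1 or EMT6, the p27K high group held the cells that the labels call QCC, the quiescent cells with a strong signal of the mVenus-p27k reporter, and the p27K negative group held the proliferative cells sorted from the same tumour. All cells had been transduced with mCherry and the reporter, 250000 of them were placed in a mammary fat pad of female Balb/cJ mice, and tumours were taken on day 14. Tumours were digested, cells were stained for CD45 and with DAPI, and sorting was done on an AriaIII. Gate limits and the age of the mice are not stated in the labels. Each line went through a sequencing run of its own, so line and run cannot be told apart.

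Library totals ran from 27887221 to 45460880 counts in 4T07, from 1335433 to 20174767 in D2A1 and from 13769682 to 20142013 in EMT6. Of the libraries, 3 stood apart in depth, all of D2A1 and p27K negative: tumour 1 gave 1335433 counts, tumour 2 2110563 and tumour 3 1802042. The p27K high library of 4T07 tumour 2 had reads on 13500 genes, against 15094 to 15370 in the other p27K high libraries of that line. The gates separated proliferation in every line, with log2 changes of -6.52 in 4T07, -5.92 in D2A1 and -5.31 in EMT6 for the proliferation marker Mki67. Of the markers listed for the tumour cells, Vim, which is not specific to carcinoma, was high and Krt18 present in all lines. Epcam averaged at most 3.12 CPM in any group and Krt5 was at or near 0. That Epcam mean, of D2A1 p27K negative cells, included a library at 10.4 CPM. Krt8 was lower in p27K high cells, by log2 changes of -0.48 in 4T07, -2.46 in D2A1 and -0.30 in EMT6. In D2A1 p27K negative libraries Krt8 ranged from 3.70 to 143 CPM and Cdh1 from 0 to 80.6 CPM. Cdh1 was at most 3.30 CPM in D2A1 p27K high libraries. Krt19 was higher in p27K high cells of 4T07 and EMT6 (1.39 each). Markers of other cell types were also read, at levels that differed between lines. In 4T07 the macrophage markers fell in p27K high cells at 13 of 13 genes, with a summed level of 168 to 185 CPM in p27K high against 566 to 1233 CPM in p27K negative libraries. In D2A1 that sum was 140 to 180 CPM in p27K high and 75.1 to 131 CPM in p27K negative libraries, carried by Cd14 (mean 136 CPM in p27K high and 61.4 CPM in p27K negative cells), which alone of 8 tested markers passed the threshold; the median log2 change of the 8 was -0.94. In EMT6 it was 44.9 to 58.6 CPM in p27K high and 32.2 to 45.8 CPM in p27K negative libraries. Of 6 markers tested there, Csf1r, Cd68 and Cd14 rose, and Mrc1 fell by a log2 change of -1.15. Endothelial markers fell at 4 of 4 tested genes in 4T07, 2 of 3 in D2A1 and 0 of 1 in EMT6. Neutrophil markers fell at 4 of 7 tested genes in 4T07, and 1 of 2 rose in D2A1 and in EMT6. In bulk RNA, fewer cells of a type and less RNA per cell cannot be told apart. Nor can marker reads from other cells be told from reads of the tumour cells themselves.

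Of the 9 genes, 7 passed the filter on low counts in 4T07 and in D2A1 and 6 in EMT6. A gene was called when the quasi-likelihood test of edgeR, with the tumour as a block, gave a Benjamini-Hochberg adjusted p under 0.05 over all genes. Because the members were selected on this change, their calls describe them and are no evidence of a change in the set. By that rule 5 rose and 1 fell in 4T07, where 45.7% of 12849 genes were called (22.1% rose and 23.6% fell). In D2A1 4 rose and 1 fell, where 29.5% of 12845 genes were called (14.9% rose and 14.7% fell), and in EMT6 5 rose and 1 fell, where 49.2% of 13354 were (24.1% rose and 25.1% fell). Hsd11b1, Tsc22d3 and Sgk1 rose and Fkbp5 fell in p27K high cells of all 3 lines. Among the 10773 genes tested in every line, 6.41% rose in all of them and 9.62% fell in all of them. The median log2 change of the tested members was 0.44 in 4T07, 0.53 in D2A1 and 0.53 in EMT6, and that of all tested genes was -0.00, 0.02 and 0.02. Levels are given as CPM, counts scaled to library size with TMM factors set within a line, and tumours are listed in the order 1 to 4 (in EMT6 by the column numbers 0, 1, 2 and 4). In D2A1 the number past the threshold and higher was 2 without tumour 1, 3 without tumour 2, 5 without tumour 3 and 2 without tumour 4. Of all genes, 18.8%, 20%, 37% and 22.2% were called in these fits, in that order. The log2 change of Fkbp5 was -0.38, -0.35, -0.37 and -0.37 in these fits, past the threshold in the fit without tumour 3.

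**Figure D1:**
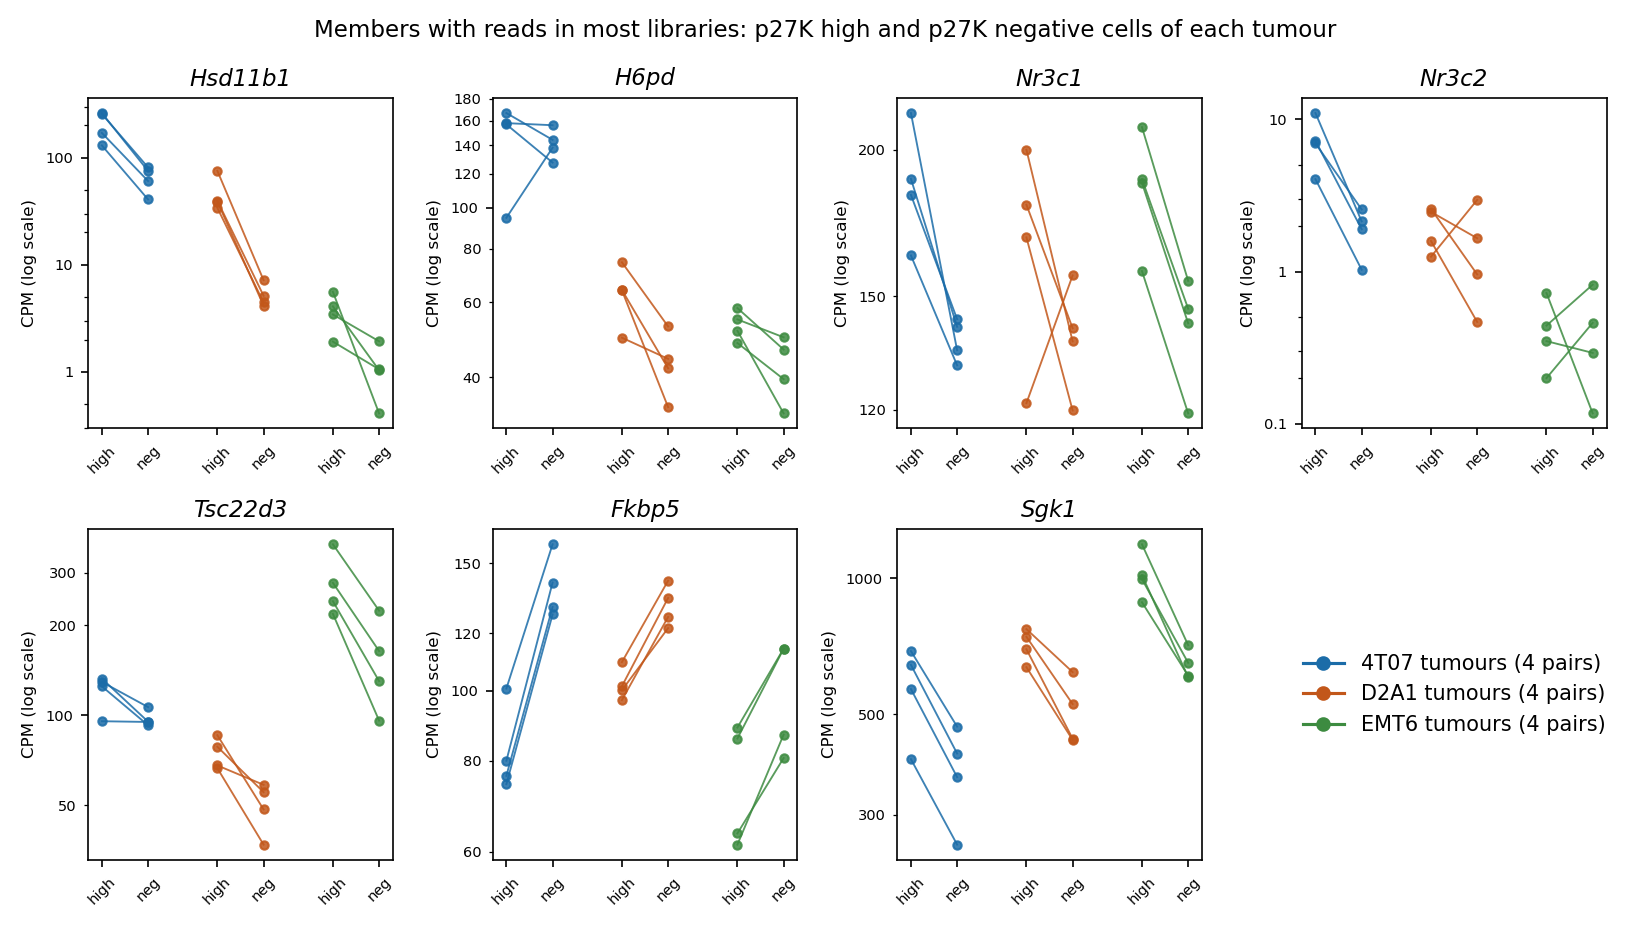
Level of 7 members in each library, in CPM on a log axis, with a line joining the p27K high (left) and p27K negative (right) library of a tumour; colours mark the lines. Hsd11b1 and Sgk1 were higher and Fkbp5 lower in the p27K high library of all 12 tumours, and Hsd11b1 lay far lower in EMT6 than in 4T07.

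Hsd11b1 had the highest fold between gates of the members in D2A1. The gene lies on the minus strand of chromosome 1 (GRCm38 positions 193221634 to 193264075, GENCODE vM21). In 4T07 it stood at 170, 256, 130.0 and 261 CPM in p27K high cells, against 60.5, 81.0, 40.7 and 75.2 CPM in p27K negative cells. In D2A1 it stood at 33.9, 39.6, 75.3 and 38.8 CPM in p27K high cells, against 4.44, 5.13, 7.18 and 4.15 CPM in p27K negative cells. Every p27K high library of these 2 lines lay above every p27K negative library. In EMT6 the level was low, at 5.59, 1.91, 4.09 and 3.43 CPM in p27K high cells and 0.409, 1.05, 1.04 and 1.93 CPM in p27K negative cells. There the groups overlapped narrowly, the second p27K high library falling just under the highest negative library, while each tumour's own pair kept the order.

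The log2 change of Hsd11b1 was 1.66 ± 0.08 in 4T07, 3.17 ± 0.18 in D2A1 and 1.74 ± 0.40 in EMT6 (SE, n = 4 pairs each), that is 3.15-fold, 9.01-fold and 3.34-fold. The D2A1 value rested on few reads in the shallow libraries, where the p27K negative counts of tumours 1, 2 and 3 were 6, 11 and 13. With every D2A1 library thinned to 1335433 counts, p27K high cells kept 48, 43, 101 and 56 counts and p27K negative cells 6, 6, 9 and 7, and the change was 3.14. The p27K high library of tumour 3 was both the highest for Hsd11b1 and the shallowest of its group; without that tumour the change was 3.12. In EMT6 the change was 1.23 without the tumour of column number 0 and 2.14 without the tumour of column number 4, and it stayed past the threshold in both fits.

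Hsd11b1 is also known from fibroblasts and adipocytes, so the markers of these cells are set beside it. Adipocyte markers summed to at most 3.04 CPM in any library, and Adipoq, Cidec and Lep were at or near 0. Fibroblast markers summed to 1517 to 2359 CPM in p27K high and 606 to 752 CPM in p27K negative libraries of 4T07, a sum carried by Dcn and Pdgfra, with 3 of 10 tested markers rising and 3 falling. In D2A1 the sums were 752 to 878 CPM in p27K high and 706 to 884 CPM in p27K negative libraries. Of 11 tested markers 2 rose, Pdgfra (523 CPM in p27K high against 248 CPM in p27K negative cells) and Ogn (103 CPM against 23.8 CPM). Another 6 fell, among them Col1a2 (10.8 CPM in p27K high against 127 CPM in p27K negative cells) and Thy1 (0.241 CPM against 6.69 CPM). In EMT6, where Hsd11b1 was lowest, the sums were 8654 to 11703 CPM in p27K high and 6377 to 8840 CPM in p27K negative libraries, with 7 of 9 tested markers rising. Across 4T07, D2A1 and EMT6, Pdgfra rose by log2 changes of 1.16, 1.07 and 0.81 and Ogn by 3.48, 2.23 and 1.26. Col1a2 changed by -1.30, -3.88 and 0.30 in the same order. The part of such cells in the change of Hsd11b1 was not tested.

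The promoter window of Hsd11b1 is shown because this gene moved the most in D2A1; it spans chr1:193242311-193242610 on the minus strand (RefSeq, GRCm38.p6), from 250 bases before to 50 bases after the start site, 5′ to 3′. It was searched on both strands for the glucocorticoid response palindrome (the arms AGAACA and TGTTCT with any 3 bases between them), a looser palindrome (the arms GNACA and TGTNC with any 3 bases between them) and the single arm TGTTCT, and held none of them, so no letter is in capitals.
Hsd11b1: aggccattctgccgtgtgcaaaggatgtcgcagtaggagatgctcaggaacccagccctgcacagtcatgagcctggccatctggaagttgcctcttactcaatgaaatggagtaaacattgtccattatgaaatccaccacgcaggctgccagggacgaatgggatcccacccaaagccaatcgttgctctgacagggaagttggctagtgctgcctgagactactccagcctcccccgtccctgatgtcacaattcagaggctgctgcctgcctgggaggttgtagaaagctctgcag

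H6pd, which feeds the enzyme its cofactor, moved less. In 4T07 it stood at 158, 94.7, 157 and 167 CPM in p27K high cells and 156, 138, 128 and 144 CPM in p27K negative cells. The groups overlapped and the low value belonged to tumour 2, the library with few detected genes; the log2 change was -0.00 ± 0.14, and 0.17, past the threshold, without that tumour. In D2A1 the levels were 64.0, 64.1, 49.5 and 74.45 CPM in p27K high cells and 34.0, 42.0, 44.2 and 52.6 CPM in p27K negative cells. All 4 pairs were higher in p27K high cells although the groups overlapped, and H6pd rose by a log2 change of 0.53 ± 0.14 in D2A1. In EMT6 the 4 p27K high libraries held 48.1 to 58.1 CPM and the 4 p27K negative libraries 32.9 to 49.6 CPM, a rise of 0.34 ± 0.08 that was not past the threshold without the tumour as a block (0.33). The D2A1 rise no longer passed the threshold without tumour 1 (0.44), tumour 2 (0.51) or tumour 4 (0.54).

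Hsd11b2, the inactivating enzyme, was barely detected and was tested in no line. Over the 4 libraries of a group it had 3 counts in p27K high and 6 in p27K negative cells of 4T07, 31 in p27K high and 15 in p27K negative cells of D2A1, and 8 in either gate of EMT6. Its highest level in any library was 0.933 CPM, in a D2A1 p27K negative library where it rested on 2 counts. Hsd11b2 thus had reads in every group. A gene with a count of 0 over a group's 4 libraries could reach 0.0225 CPM in 4T07 p27K high cells. In D2A1 p27K negative cells such a gene could reach 0.144 CPM. These limits take 3 counts as the bound and cover counting error alone.

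Nr3c1 encodes the glucocorticoid receptor and was transcribed at a like level everywhere. In 4T07 it stood at 189, 215, 162.5 and 183 CPM in p27K high cells and 141, 135, 131 and 143 CPM in p27K negative cells, groups that did not overlap. In EMT6 the levels were 158, 209, 189 and 187.5 CPM in p27K high cells and 119, 155, 146 and 142 CPM in p27K negative cells, again without overlap. Nr3c1 rose by a log2 change of 0.44 ± 0.09 in 4T07 and of 0.40 ± 0.04 in EMT6. In D2A1 the levels were 168, 179.6, 122 and 200 CPM in p27K high cells and 119.8, 141, 156 and 137 CPM in p27K negative cells. Tumour 3 ran against the other 3 pairs, and the change of 0.26 ± 0.15 was not called; without tumour 3 it was 0.46 and was called.

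Nr3c2, the mineralocorticoid receptor, which also binds corticosterone, was scarce. In 4T07 it stood at 6.96, 4.05, 7.24 and 11.0 CPM in p27K high cells and 2.56, 1.03, 1.90 and 2.14 CPM in p27K negative cells. The groups did not overlap and Nr3c2 rose by a log2 change of 1.92 ± 0.21 in 4T07, 3.80-fold. In D2A1 it had 1.25 to 2.58 CPM in p27K high and 0.466 to 2.96 CPM in p27K negative libraries, groups that overlapped, with a change of 0.77 ± 0.53 that was not called and that was 1.26 without tumour 1. In EMT6 its 27 counts in p27K high and 29 in p27K negative cells were too few for the filter. An exon of Gm10649 on the other strand shares 247 bases with Nr3c2 and had 0 counts in every table; the labels do not say whether counting used strand.

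Sgk1, a kinase gene that corticosteroids induce within hours and that acts on ion transport and cell survival, was the most abundant member on the length-scaled level in every group. Its 6 start sites each have a window in the RefSeq table, and the fifth is shown because it holds the full response palindrome. That window is chr10:21993640-21993939 on the plus strand (GRCm38.p6), 250 bases before to 50 after the start, 5′ to 3′; the longer run of capitals is the palindrome, 189 bases before the start, and the shorter run is a further single arm.
Sgk1, start site 5: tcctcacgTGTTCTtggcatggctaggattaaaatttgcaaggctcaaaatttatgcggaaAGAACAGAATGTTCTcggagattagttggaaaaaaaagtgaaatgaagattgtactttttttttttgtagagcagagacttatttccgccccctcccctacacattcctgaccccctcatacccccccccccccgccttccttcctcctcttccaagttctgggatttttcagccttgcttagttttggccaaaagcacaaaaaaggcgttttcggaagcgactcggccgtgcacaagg
The palindrome occurred in 3 of 32851 promoter windows of this length (0.00913%), the looser one, which the full one contains, in 156 (0.475%), and the single arm on either strand in 6233 (19%). Of the 13 windows found for 6 members, none other held a palindrome, and a single arm was also found in the windows of H6pd (1 of 1), Sgk1 (the first and the fourth) and Tsc22d3 (the third of 3). A match to these letters describes the sequence and shows no binding, and counts by gene do not tell which start site was used.

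Sgk1 stood at 691, 644, 398 and 569 CPM in p27K high cells and 469.7, 409.5, 257 and 363 CPM in p27K negative cells of 4T07. Each tumour's p27K high library was the higher of its pair, though the groups overlapped because tumour 3 was low in both gates. In D2A1 the levels were 697, 742.5, 636 and 772 CPM in p27K high cells and 442, 527, 439 and 620.3 CPM in p27K negative cells, without overlap. In EMT6 they were 886, 1017, 997 and 1190.5 CPM in p27K high cells and 609, 604.5, 650.4 and 712 CPM in p27K negative cells, also without overlap. Sgk1 rose by a log2 change of 0.62 ± 0.07 in 4T07, 0.50 ± 0.11 in D2A1 and 0.66 ± 0.05 in EMT6. The D2A1 rise no longer passed the threshold without tumour 1 (0.45).

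Tsc22d3 encodes GILZ, a leucine zipper protein that carries part of the anti-inflammatory action of glucocorticoids. In 4T07 it stood at 129, 95.4, 125 and 132.5 CPM in p27K high cells and 106, 94.9, 92.5 and 95.1 CPM in p27K negative cells. Tumour 2 hardly differed between gates and the groups overlapped. In D2A1 the levels were 67.8, 66.4, 78.4 and 85.7 CPM in p27K high cells and 58.4, 36.8, 55.2 and 48.3 CPM in p27K negative cells, without overlap. In EMT6 they were 218, 277, 241 and 373 CPM in p27K high cells and 95.9, 164, 130.0 and 224 CPM in p27K negative cells, where all 4 pairs were higher in p27K high cells and only the first p27K high library lay under the highest negative library. Tsc22d3 rose by a log2 change of 0.30 ± 0.10 in 4T07, 0.61 ± 0.14 in D2A1 and 0.89 ± 0.07 in EMT6.

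The log2 change of Tsc22d3 in 4T07 was not past the threshold without tumour 1 (0.31), tumour 3 (0.26) or tumour 4 (0.24), without the tumour as a block (0.31) and with scaling by total count alone (0.17), a scaling that moved the median of all 4T07 genes to -0.14. Without tumour 2 the change in 4T07 was 0.40. In D2A1 it was not past the threshold without tumour 4 (0.51).

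Fkbp5 encodes FKBP51, a co-chaperone that lowers the hormone affinity of the receptor and is itself induced by it in many tissues; it went the opposite way to Sgk1 and Tsc22d3. In 4T07 it stood at 74.3, 76.3, 101 and 80.1 CPM in p27K high cells and 127.5, 130.5, 159 and 141 CPM in p27K negative cells. In D2A1 the levels were 100.2, 101.5, 109.5 and 97.1 CPM in p27K high cells and 122, 134, 142 and 126.5 CPM in p27K negative cells. In both lines every p27K high library lay under every p27K negative library. In EMT6 they were 63.6, 85.9, 61.3 and 89.0 CPM in p27K high cells and 80.75, 114, 87.0 and 114 CPM in p27K negative cells, so the groups overlapped, but each pair was lower in p27K high cells. Fkbp5 fell by 0.76 ± 0.07 on the log2 scale in 4T07, by 0.36 ± 0.11 in D2A1 and by 0.41 ± 0.05 in EMT6. The D2A1 fall no longer passed the threshold without the filter on low counts (-0.28), in the thinned libraries (-0.25) or without tumour 1 (-0.38), tumour 2 (-0.35) or tumour 4 (-0.37), and the EMT6 fall without the tumour as a block (-0.40).

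The window of the Fkbp5 start site is shown for contrast with that of Sgk1; it spans chr17:28486100-28486399 on the minus strand (RefSeq, GRCm38.p6), 5′ to 3′, and held none of the 3 motifs. Elements of this gene that are known to bind the receptor lie in introns, outside this window.
Fkbp5: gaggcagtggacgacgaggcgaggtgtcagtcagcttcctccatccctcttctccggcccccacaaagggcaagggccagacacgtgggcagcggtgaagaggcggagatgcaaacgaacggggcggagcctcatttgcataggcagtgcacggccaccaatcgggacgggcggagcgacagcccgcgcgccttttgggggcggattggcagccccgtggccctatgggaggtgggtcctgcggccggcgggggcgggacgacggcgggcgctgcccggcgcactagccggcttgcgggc

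Zbtb16, which encodes the transcription factor PLZF and answers strongly to glucocorticoids in several human tissues, was close to absent. It had 9 counts in p27K high cells, all in tumour 2, and 10 in p27K negative cells of 4T07, 0 in either gate of D2A1, and 4 in either gate of EMT6. It was tested in no line. In D2A1, a count of 0 over the 4 libraries allows up to 0.0490 CPM in p27K high and 0.144 CPM in p27K negative cells.

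**Figure D2:**
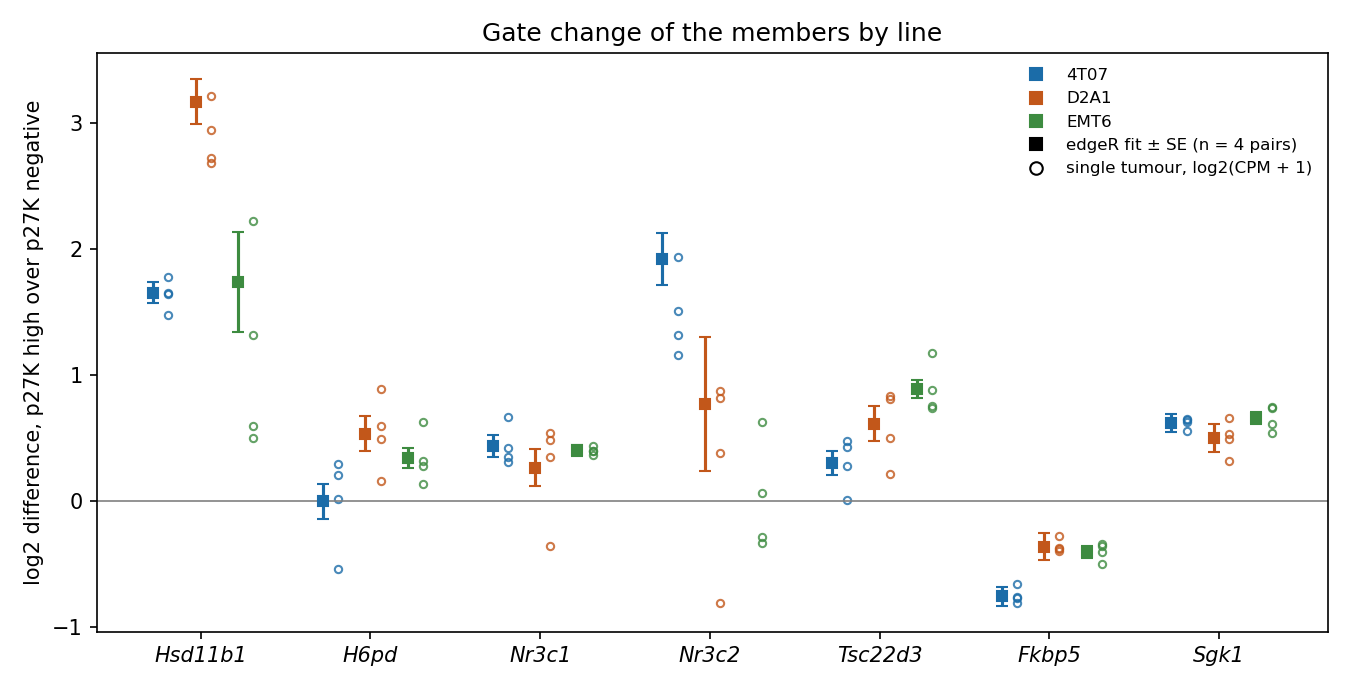
Log2 difference of 7 members, p27K high over p27K negative, by line: squares are the edgeR change ± SE (n = 4 pairs, where tested) and open circles are single tumours on log2(CPM + 1), which draws low genes such as Nr3c2 and EMT6 Hsd11b1 towards 0. Hsd11b1 in D2A1 stands highest at 3.17 and Fkbp5 is under 0 in every tumour.

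By the count of groups without overlap, 3 members lay wholly above and 1 wholly below in p27K high cells of 4T07, where 17.1% and 21% of all tested genes did so. In D2A1 3 lay above and 1 below, beside 15.4% and 15.6% of all genes. In EMT6 2 lay above, Nr3c1 and Sgk1, beside 15% of all genes, and 0 lay below, beside 19.3%.

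Levels were also set on a common scale over the symbols of all tables and divided by exon length, as CPM per kb of exon, so that genes can be compared. In p27K high cells of 4T07 the order was Sgk1 (125 ± 27.4), Hsd11b1 (51.0 ± 15.2), Tsc22d3 (29.7 ± 4.93), H6pd (29.5 ± 7.42), Nr3c1 (25.9 ± 2.33), Fkbp5 (9.34 ± 1.51) and Nr3c2 (1.21 ± 0.487; SD, n = 4 each). Tsc22d3, H6pd and Nr3c1 did not differ beyond their spread, and the lowest Hsd11b1 library (33.2) lay under the highest of H6pd (34.2). In p27K high cells of D2A1 it was Sgk1 (144 ± 13.6), Nr3c1 (21.6 ± 4.50), Tsc22d3 (17.0 ± 1.90), H6pd (12.0 ± 2.05), Hsd11b1 (10.9 ± 4.19), Fkbp5 (10.7 ± 0.430), Nr3c2 (0.301 ± 0.0959) and Hsd11b2 (0.283 ± 0.0869). Nr3c1 and Tsc22d3 overlapped there, as did H6pd, Hsd11b1 and Fkbp5, and Nr3c2 and Hsd11b2. The highest Hsd11b1 library (17.1) also lay above the lowest of Tsc22d3 (15.4) and of Nr3c1 (15.3). In p27K high cells of EMT6 it was Sgk1 (219 ± 27.1), Tsc22d3 (67.2 ± 16.5), Nr3c1 (25.4 ± 2.97), H6pd (10.7 ± 0.850), Fkbp5 (8.32 ± 1.61), Hsd11b1 (0.927 ± 0.374), Hsd11b2 (0.0694 ± 0.0301) and Nr3c2 (0.0694 ± 0.0355). H6pd and Fkbp5 overlapped there, as did Hsd11b2 and Nr3c2.

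Of the members with reads in every group, Hsd11b1 had the highest ratio between its highest and its lowest group mean. Its length-scaled level was 51.0 ± 15.2 in p27K high and 15.8 ± 4.34 in p27K negative cells of 4T07, 10.9 ± 4.19 in p27K high and 1.15 ± 0.291 in p27K negative cells of D2A1, and 0.927 ± 0.374 in p27K high and 0.273 ± 0.154 in p27K negative cells of EMT6 (SD, n = 4 each). Its p27K negative cells of 4T07 thus overlapped the p27K high cells of D2A1, at 9.99 to 19.8 and 8.03 to 17.1, and the p27K high cells of EMT6 overlapped the p27K negative cells of D2A1. Nr3c1 by contrast stayed between 17.0 and 25.9 in the means of all 6 groups. The 4T07 table holds fewer genes than the other 2, so its place on this scale and its line cannot be told apart.

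**Figure D3:**
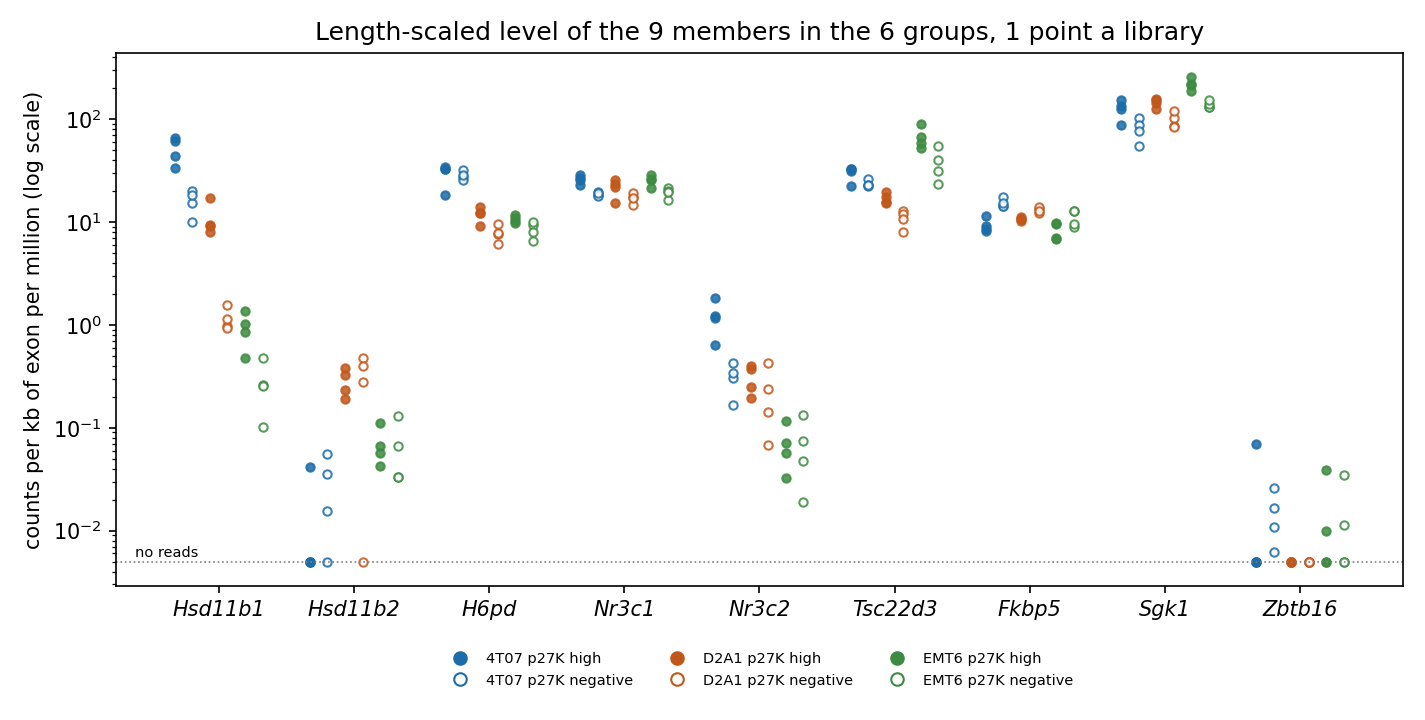
Length-scaled level of the 9 members in each library, in CPM per kb of exon on a log axis; filled points are p27K high and open points p27K negative cells, and points on the dotted line had no reads. Sgk1 is uppermost in every group, and Hsd11b1 falls from 4T07 through D2A1 to EMT6 in both gates.

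Levels in proliferating cells were compared between D2A1 and EMT6, whose tables list the same genes, with edgeR over 13633 genes and 4 libraries a line; 58.8% of genes differed at an adjusted p under 0.05, 28.5% higher in D2A1 and 30.3% higher in EMT6. Hsd11b1 was higher in D2A1, by a log2 difference of 2.05 ± 0.41 (4.15-fold, adjusted p = 0.00101), with all 4 D2A1 libraries (0.930 to 1.57 per kb) above all 4 EMT6 libraries (0.101 to 0.476). Tsc22d3 was lower in D2A1 by -1.76 ± 0.24 (adjusted p = 4.46e-05), at 8.00 to 12.6 in D2A1 and 23.2 to 54.1 in EMT6. Sgk1 was lower by -0.45 ± 0.11 (adjusted p = 0.00402), at 83.3 to 120.4 in D2A1 and 129 to 152 in EMT6. Hsd11b1 and the responsive gene Tsc22d3 therefore differed in opposite directions between these lines.

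For 4 members the same test did not pass the threshold. The log2 difference, D2A1 over EMT6, was 0.29 ± 0.12 for Fkbp5 (adjusted p = 0.0562), 1.37 ± 0.62 for Nr3c2 (adjusted p = 0.0754), -0.13 ± 0.10 for Nr3c1 (adjusted p = 0.268) and -0.03 ± 0.15 for H6pd (adjusted p = 0.889). Fkbp5 passed the threshold with total count scaling (0.41) and without the EMT6 tumour of column number 1 or 4 (0.36 each), and Nr3c2 without that of number 1 (1.90). The fibroblast and epithelial markers of these cells also differed, with Col1a2 at 127 CPM in D2A1 and 3869 CPM in EMT6 and Krt8 at 58.8 CPM in D2A1 and 789.6 CPM in EMT6; their part in the member differences was not tested.

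Other genes that glucocorticoids induce in one or another tissue were listed from textbook knowledge, 36 in all. In 4T07 11 of 29 tested genes rose and 5 fell, with a median log2 change of 0.04. In D2A1 18 of 27 rose and 0 fell (edgeR; 1 at an unadjusted p under 0.05, and 0 by DESeq2), with a median of 0.60, and in EMT6 19 of 29 rose and 3 fell, with a median of 0.37. Of all genes, 22.1% rose and 23.6% fell in 4T07, 14.9% rose and 14.7% fell in D2A1, and 24.1% rose and 25.1% fell in EMT6, and their medians were -0.00, 0.02 and 0.02. Without the tumour as a block 11 rose in EMT6, and in 4T07 3 fell without the block or without tumour 1 or 4 and 1 with a stricter filter (at least 5 CPM in 4 libraries). Of the 26 tested in every line, 9 rose in all 3 (34.6%, beside 6.41% of all genes): Errfi1, Klf9, Rgs2, Mt2, Dusp1, Bcl6, Mt1, Lpin1 and Cebpd. Many of these genes also answer to serum, stress or cytokines, and the list was drawn up with earlier results of these data known.

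Klf9, a Krüppel-like repressor that glucocorticoids induce in many tissues, stood at 219.8, 263, 165 and 177 CPM in p27K high and 115, 114, 75.8 and 84.7 CPM in p27K negative cells of 4T07. In D2A1 it stood at 116, 121, 149.8 and 129.9 CPM in p27K high and 45.9, 49.4, 40.9 and 46.4 CPM in p27K negative cells. In EMT6 it stood at 83.0, 55.6, 65.6 and 59.7 CPM in p27K high and 36.1, 38.6, 43.4 and 43.5 CPM in p27K negative cells. No line showed overlap, and Klf9 rose by a log2 change of 1.08 ± 0.08, 1.49 ± 0.13 and 0.70 ± 0.11 in 4T07, D2A1 and EMT6 (adjusted p = 5.45e-05, 2.03e-06 and 0.000662, edgeR).

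Errfi1, a feedback inhibitor of the EGF receptor, averaged 1418 ± 98.7 CPM in p27K high and 699.6 ± 78.3 CPM in p27K negative cells of 4T07 and rose by 1.02 ± 0.07 there, by 0.60 ± 0.11 in D2A1 and by 0.80 ± 0.07 in EMT6. Rgs2, which dampens G-protein signalling, rose by 1.22 ± 0.13, 1.06 ± 0.12 and 1.52 ± 0.27 in 4T07, D2A1 and EMT6. In EMT6 a single p27K high library at 74.0 CPM stood above the other 3, at 11.7 to 26.4 CPM, against 6.97 to 11.8 CPM in p27K negative libraries. The metallothionein genes Mt1 and Mt2, which bind zinc and copper, rose by 0.82 ± 0.16 and 0.70 ± 0.12 in 4T07, by 1.05 ± 0.19 and 1.12 ± 0.20 in D2A1 and by 0.73 ± 0.05 and 0.65 ± 0.06 in EMT6.

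The falls lay at other genes. Usp2, a deubiquitinase gene of the circadian system, averaged 3.64 ± 0.994 CPM in p27K high and 12.5 ± 1.86 CPM in p27K negative cells of 4T07, a fall of 1.81 ± 0.16 on the log2 scale, and it fell by 0.99 ± 0.17 in EMT6; in D2A1 its change was -0.54 ± 0.44. The other falls in 4T07 were Mertk (-1.63 ± 0.23), Il1r2 (-1.63 ± 0.29), Mfsd2a (-1.06 ± 0.30) and Cd163 (-0.93 ± 0.33), of which Mertk and Cd163 are receptors of macrophages. They moved with the 13 macrophage markers given above, whose part in these falls was not tested. In EMT6 Mfsd2a (-0.63 ± 0.15) and Slc19a2 (-0.30 ± 0.08) also fell; Il1r2, Cd163 and Slc19a2 were named after their values were seen.

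**Figure D4:**
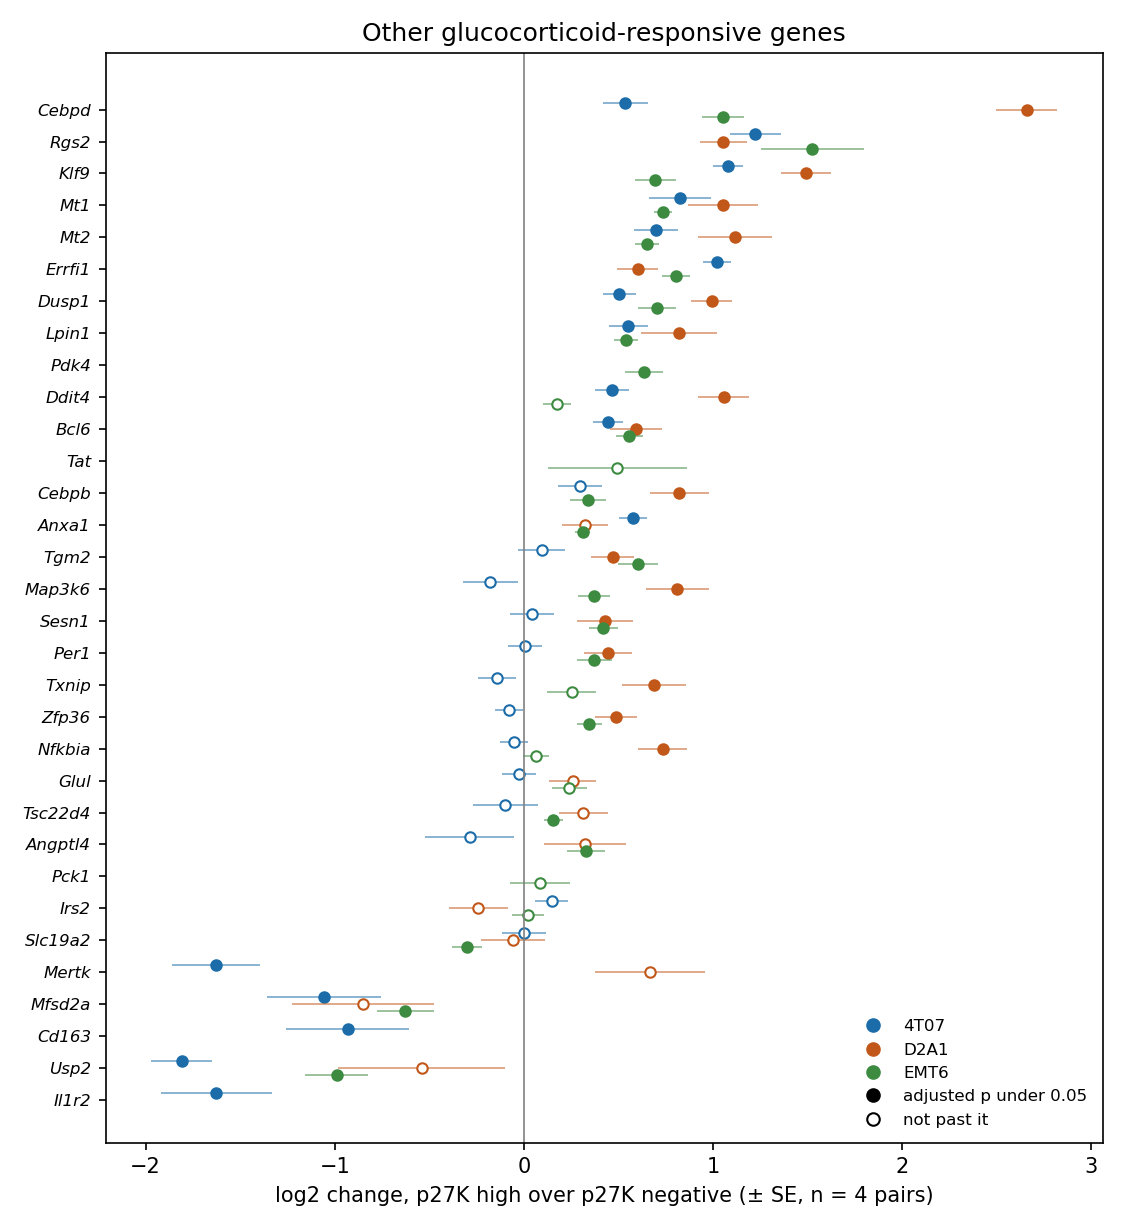
Log2 change, p27K high over p27K negative, of the tested genes of the list of other glucocorticoid-responsive genes, ± SE (n = 4 pairs), coloured by line; filled points passed an adjusted p under 0.05. Cebpd in D2A1 lies farthest to the right at 2.66, and Usp2 in 4T07 farthest to the left at -1.81.

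Of 20 listed steroid enzymes and carriers, 12 were tested in 4T07, 11 in D2A1 and 10 in EMT6, and the adrenal enzyme genes Cyp11b1 and Cyp21a1 averaged at most 0.0774 CPM in any group. In 4T07 3 rose and 3 fell, in D2A1 1 rose and 1 fell, and in EMT6 3 rose and 1 fell. Of all genes tested in 4T07, D2A1 and EMT6, 22.1%, 14.9% and 24.1% rose and 23.6%, 14.7% and 25.1% fell. Without the tumour as a block 1 rose in EMT6, and with the stricter filter or thinned libraries 0 fell in D2A1. Slc37a4, which carries glucose-6-phosphate into the endoplasmic reticulum where H6pd uses it, rose in all 3 lines by log2 changes of 0.63 ± 0.12, 0.97 ± 0.19 and 0.36 ± 0.09 in 4T07, D2A1 and EMT6. Srd5a1, a 5α-reductase that breaks down glucocorticoids among other steroids, fell by 1.04 ± 0.24, 1.41 ± 0.35 and 1.33 ± 0.18 in the same order, at 2.08 to 3.34 CPM in p27K high and 6.02 to 6.76 CPM in p27K negative cells by group mean. In 4T07 the steroid dehydrogenase gene Hsd3b7 rose by 1.04 ± 0.11 and the drug efflux pump gene Abcb1a, whose product exports corticosteroids, by 0.94 ± 0.09, and Pgls, of the pentose phosphate pathway, fell by 0.71 ± 0.13. Abcb1a rose by 0.97 ± 0.21 in EMT6 as well.

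The chaperones that hold the receptor ready for hormone were tested at all 14 genes of their list. In 4T07 3 rose and 2 fell, in D2A1 6 fell and 0 rose (edgeR, with 0 also at an unadjusted p under 0.05 and by DESeq2), and in EMT6 1 rose and 11 fell; the medians were 0.12, -0.33 and -0.32. Of all genes, 22.1% rose and 23.6% fell in 4T07, 14.9% rose and 14.7% fell in D2A1, and 24.1% rose and 25.1% fell in EMT6. In 4T07 1 rose without tumour 1 and 1 fell without tumour 1, 3 or 4, in D2A1 11 fell without tumour 3, and without the tumour as a block 1 rose and 1 fell in 4T07 and 0 rose and 7 fell in EMT6. Stip1, which links the HSP70 and HSP90 chaperones, fell in all 3 lines, at 241 ± 25.0 against 287 ± 26.6 CPM in 4T07, 196 ± 13.5 against 321 ± 19.7 CPM in D2A1 and 229.7 ± 6.86 against 382 ± 23.2 CPM in EMT6, p27K high against p27K negative. Ptges3, the p23 co-chaperone, fell by 0.61 ± 0.11 in D2A1, and Ahsa1, an activator of HSP90, by 0.83 ± 0.05 in EMT6. Ppp5c, a phosphatase of the same complexes, fell by 0.59 ± 0.09 in 4T07, where St13 rose by 0.50 ± 0.13 and Dnajb1 by 0.45 ± 0.08; Dnajb1 also rose by 0.36 ± 0.06 in EMT6. Fkbp5 thus fell in lines where most of the called chaperone genes fell as well, D2A1 and EMT6, and in 4T07, where the called ones were divided.

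Of the receptor coregulators, 15, 16 and 15 were tested in 4T07, D2A1 and EMT6, of which 2, 0 and 1 rose and 3, 4 and 6 fell (edgeR; in D2A1 0 rose at an unadjusted p under 0.05 and by DESeq2 too), where 22.1%, 14.9% and 24.1% of all genes rose and 23.6%, 14.7% and 25.1% fell. The number that fell was 1 in 4T07 without tumour 1, 3 or 4, 1 in D2A1 without tumour 1, 2 or 4, and 3 in EMT6 without the tumour as a block; 1 rose in 4T07 without tumour 1, and 2 rose in EMT6 without the tumour of column number 1 or 4. The mediator subunit gene Med14 fell by 0.34 ± 0.08, 0.70 ± 0.14 and 0.58 ± 0.06, and Smarca4, the BRG1 motor of chromatin remodelling, by 0.42 ± 0.07, 0.35 ± 0.11 and 0.31 ± 0.05. The coactivator gene Ncoa1 rose by 0.76 ± 0.11 in 4T07 and 0.29 ± 0.07 in EMT6, and Ncoa2 by 0.35 ± 0.09 in 4T07. Hdac2 fell by 0.44 ± 0.12 in D2A1 and the methyltransferase gene Carm1 by 0.30 ± 0.05 in EMT6.

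A joint fit of all 24 libraries asked whether a gene's change was equal in the 3 lines, and 24.5% of 13578 genes failed that at an adjusted p under 0.05. So did 10 of 32 tested genes of the responsive list, 7 of 14 chaperones, 5 of 13 steroid genes and 2 of 16 coregulators. Cebpd, a C/EBP transcription factor of the acute phase, was among them, with log2 changes of 0.56 in 4T07, 2.72 in D2A1 and 1.06 in EMT6 (adjusted p = 4.65e-06). So were Nfkbia, which encodes the inhibitor IκBα (-0.02, 0.79 and 0.07; adjusted p = 0.00121), Ddit4, an inhibitor of mTORC1 (0.50, 1.12 and 0.18; adjusted p = 0.00175), and St13 (0.53, -0.26 and 0.03; adjusted p = 0.00209). Of the members, Hsd11b1 changed by 1.66, 3.17 and 1.74 and Tsc22d3 by 0.30, 0.61 and 0.89 in the fits of the single lines, given side by side with no test.

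Genes were then ranked by how closely their gate difference followed that of Hsd11b1 over the 12 tumours, as Pearson r of the difference of log2(CPM + 1) among 10802 genes. Mpzl1 (0.949), Klf9 (0.937), Slc29a1 (0.935), Irx1 (0.912) and Lhfp (0.907) came first. For Tsc22d3 they were Brca2 (0.942), Sgk3 (0.922), Hoxa2 (0.903), Dennd1a (0.898) and Bub1b (0.891). A high r marks differences that vary together, whatever their direction. Mean differences in 4T07, D2A1 and EMT6 were -2.67, -2.46 and -2.14 for Brca2 and -5.59, -5.16 and -4.61 for Bub1b. For Sgk3 they were -0.76, -0.23 and 0.17, with tumours from -1.24 to 0.24 in D2A1 and from -0.23 to 1.00 in EMT6. Hoxa2 averaged -0.73, -0.47 and 0.37 and Dennd1a -0.08, -0.02 and 0.29. Both were above 0 in every EMT6 tumour and had D2A1 tumours on either side of 0. On average Mpzl1 was lower in 4T07 and EMT6 and higher in D2A1. Klf9 and Lhfp were higher in p27K high cells of every tumour. Slc29a1 averaged 0.05 in 4T07, 1.06 in D2A1 and 0.02 in EMT6, where its tumours ran from -0.53 to 1.18. Irx1 averaged 0.44, 0.99 and 0.12, with EMT6 tumours from -0.08 to 0.29. The 12 tumours fall into 3 lines that each share a sequencing run, so r mixes differences between lines with differences within a line. No r was taken within a line, and the values are a description. For Hsd11b1 and Klf9 the D2A1 tumours were uppermost on both axes, and the EMT6 tumour of column number 0 stood apart from the other 3 EMT6 tumours on both.

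**Figure D5:**
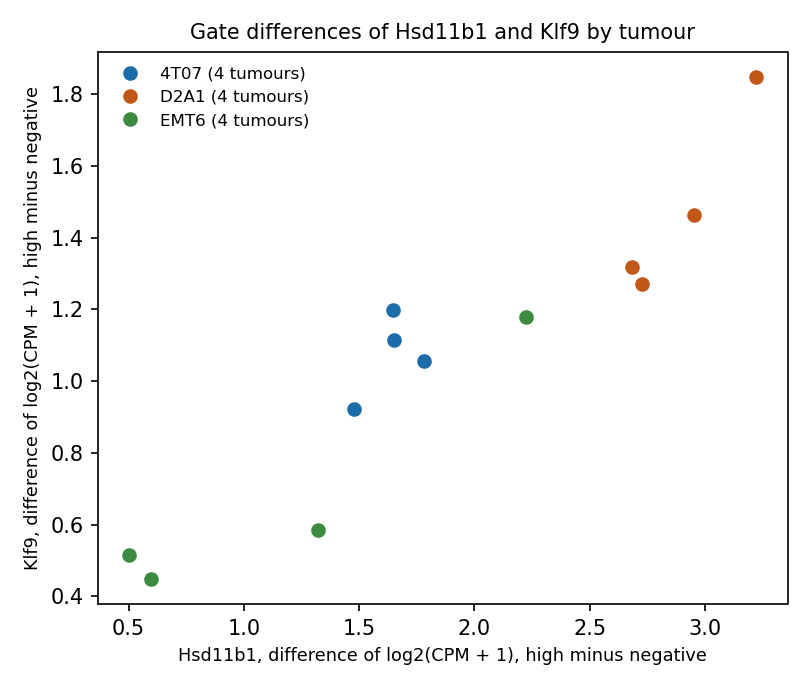
Difference of log2(CPM + 1), p27K high minus p27K negative, of Hsd11b1 (x) and Klf9 (y), 1 point a tumour, coloured by line. The 4 D2A1 tumours lie between 2.68 and 3.22 on the x axis, and the EMT6 tumours spread from 0.504 to 2.22.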

How the data were processed

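Bulk RNA-seq of sorted p27K high and p27K negative cells was analysed from 3 deposited tables of raw counts per gene, 1 a line, made by GENEWIZ per the labels' protocols. The submitters' processing notes name mm10 and DESeq2. The aligner, the counter and the strand setting were not given in the sources used here. Blank-named rows (at most 0.0109% of a library) and 4 symbols turned into dates were left out, and 94 symbols on several rows were summed in D2A1 and EMT6.

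Counts were fitted with edgeR 4.0.16 in R 4.3.3 (TMM scaling, filterByExpr, quasi-likelihood test, tumour as a block), and the SE is the log2 change over the root of F. P-values of a gate change, or of its difference between lines, reflect how far tumours of a line differ in that change. Those of the levels in D2A1 against EMT6 reflect how far tumours of a line differ in level. Levels between D2A1 and EMT6 used the p27K negative libraries, 4 a line. Alternatives were DESeq2 1.42.0, other scalings and filters, no block, thinning and leaving out each tumour. The scripts were tested on simulated data. Depth, from 1335433 to 45460880 counts a library, limits low genes; limits for a count of 0 use 3 counts and cover counting error only.

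Numbers in the labels or, for EMT6, in the column names pair the gates of a tumour. Deviations of same-numbered libraries from their group means correlated at 0.196 to 0.802 in 4T07, 0.083 to 0.295 in D2A1 and 0.575 to 0.814 in EMT6 over 5000 genes, and same-numbered libraries were closest to one another except in 4T07 tumour 4.

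The members and lists were chosen with earlier results of these data known. Named list genes are up to 2 that rose and 2 that fell in each line and those called in all 3 lines. Promoter windows are from RefSeq on GRCm38.p6, gene positions from GENCODE vM21 on GRCm38; 6 of the 9 members had a window.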

Additional observations from a re-analysis of the deposited data

Results flagged for a closer look

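Of 52 groups of 4 libraries checked for a library far from the other 3, 4 had one. For normally spread values chance gives about 1 in 20. H6pd was low in the p27K high library of 4T07 tumour 2 (94.7 CPM), the library with the fewest detected genes of its group. Zbtb16 was highest in the same library (0.365 CPM, from 9 counts), and Hsd11b2 in that of 4T07 tumour 1 (0.0696 CPM, from 3 counts). For both genes every other library of the group had 0 counts. Any read sets a library apart there, so the chance rate does not hold for them. Hsd11b1 was highest in the p27K high library of D2A1 tumour 3 (75.3 CPM), the shallowest of its group.

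The gate change of 4 list genes differed between the lines by the joint test given above, here with their D2A1 log2 changes: Cebpd 2.72, Nfkbia 0.79, Ddit4 1.12 and St13 -0.26.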

How the results depend on the processing

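Of 202 refits of 20 member changes, 19 changed a call, in 9 of the changes, and none changed the direction of a called change; their values stand beside the genes. Leaving out 1 tumour gave 3698 to 7727 called genes in 4T07 (5868 with all tumours) and 2444 to 5051 in D2A1 (3794), the lowest in each without tumour 1. Without the replicate block, 27 instead of 45 listed non-member genes were called in EMT6, and 1607 instead of 3332 genes differed between lines. The level of H6pd, D2A1 over EMT6, was -0.03 and turned to 0.095 with total count scaling; leaving out 1 library gave -0.18 to 0.046, above 0 without D2A1 tumour 1 or the EMT6 tumour of column number 1 or 4, never past the threshold. The cause of these shifts was not tested. Depth limits Hsd11b1 in D2A1 p27K negative cells and Nr3c2, Hsd11b2 and Zbtb16 throughout.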
